A study of Mus musculus with 10 samples.

Results

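AMPA receptors are glutamate-gated cation channels that carry most of the fast excitatory current at synapses. Each channel is an assembly of pore subunits encoded by Gria1, Gria2, Gria3 and Gria4, surrounded by auxiliary subunits that set trafficking and gating. The Gria2 subunit is known for one position in the pore loop, where RNA editing replaces the encoded glutamine with an arginine, and channels that hold the edited subunit pass little calcium. All 4 genes were found by their symbols among the 54838 gene identifiers of the count files, and all 4 were among the 16806 genes that passed the expression filter.

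The libraries were made from MC-TRAP mice (C57BL/6), in which Drd2-Cre switches on the EGFP-tagged ribosomal protein L10a from an Eef1a1LSL.eGFPL10a/+ allele. Ribosome-bound mRNA was precipitated with the tag (translating ribosome affinity purification, TRAP) from Dorsal and Ventral hippocampus of male mice of about 10 weeks. Each group had 5 libraries, and every animal carried both alleles. The hippocampi were cut into both parts, so the groups were not separate sets of mice. Each library came from the pooled tissue of 5 mice, so a replicate is a pool. The Cre line marks hilar mossy cells, the excitatory neurons of the dentate hilus, and also sparse GABAergic interneurons and neurons of the ventral subiculum. The Dorsal part was the smaller, upper portion of the hippocampus, and the Ventral part was the remainder with the ventral subiculum trimmed away. A difference in level between groups in such pooled RNA cannot be told apart into fewer cells of a type and less RNA per cell.

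Counts on genes ranged from 11138676 to 20594364 per library and did not separate the groups (exact permutation test, two-sided p = 0.421, n = 5 and 5). The share of read pairs outside annotated genes was 21.8 to 33.9% in Dorsal and 11.6 to 19.3% in Ventral libraries (two-sided exact permutation test, p = 0.00794, the smallest that 5 against 5 can give). Mitochondrially encoded mRNA stood at 2767 to 3513 CPM in Dorsal and 446 to 1255 CPM in Ventral libraries (exact permutation p = 0.00794), and its part in the results was not tested. Drd2 stood at 23.4 to 31.8 CPM (counts relative to library size, TMM-scaled) in Dorsal and 17.6 to 28.0 CPM in Ventral libraries. Gad2, a defining gene of GABAergic neurons, stood at 2390 to 3416 CPM and 2668 to 3604 CPM (log2 fold change, dorsal over ventral, -0.15). It was 1 of 12 interneuron markers, of 13, with a negative log2 fold change, and 1 was positive. Their median was -0.40. Summed over 13 interneuron markers the level was 3882 to 5108 CPM in Dorsal and 4698 to 6161 CPM in Ventral libraries, with 0 called dorsal-enriched and 3 called ventral-enriched. The summed levels of the myelin and of the astrocyte markers were higher in every Dorsal than in every Ventral library, though not each of their genes was. The 7 oligodendrocyte markers summed to 2388 to 2751 CPM against 843 to 1591 CPM, with 4 called dorsal-enriched. The 8 astrocyte markers summed to 1965 to 2237 CPM against 864 to 1453 CPM, with 4 called dorsal-enriched and 1 ventral-enriched. For scale beside these marker counts, a dorsal call fell on 15.7% and a ventral call on 9.85% of the 16806 tested genes. None of these markers was at 0 in every library, and the part that such RNA has in the results for the pore subunits was not tested.

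The coding sequence around the editing site shows how alike the 4 mRNAs are where the channel pore is formed. The stretches below are 75 bases of the coding strand of one transcript per gene (GENCODE M21, GRCm38), with the codon of the glutamine/arginine site in capitals. In the genome all 4 genes encode glutamine there, as CAG in Gria1, Gria2 and Gria3 and as CAA in Gria4.
Gria1, codon 600: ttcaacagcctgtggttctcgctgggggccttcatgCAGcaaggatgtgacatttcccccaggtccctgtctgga
Gria2, codon 607: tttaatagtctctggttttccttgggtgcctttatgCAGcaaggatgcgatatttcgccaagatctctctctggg
Gria3, codon 612: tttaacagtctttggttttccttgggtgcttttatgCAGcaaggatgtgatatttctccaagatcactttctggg
Gria4, codon 608: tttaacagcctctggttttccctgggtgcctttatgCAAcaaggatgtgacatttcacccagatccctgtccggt

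Between 58 and 68 of the 75 bases were identical in a pair of these stretches, fewest between Gria1 and Gria2 and most between Gria2 and Gria3. Over the whole coding sequence the pairs shared 71.7 to 74.6% of aligned bases. Of the 50-base stretches of their exons, 0 to 9 were common to a pair of members, so that reads of this length could rarely be credited to the wrong subunit. The deposited values are counts per gene, in which edited and unedited Gria2 mRNA, or flip and flop exons, are not told apart.

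Gria1 lies at chr11:57011387-57330244 on the plus strand of GRCm38 (ENSMUSG00000020524). Gria2 lies at chr3:80681450-80802835 on the minus strand (ENSMUSG00000033981). Gria3 lies at chrX:41400854-41678601 on the plus strand (ENSMUSG00000001986), and Gria4 at chr9:4417896-4796234 on the minus strand (ENSMUSG00000025892). Their exons together span 6043, 15548, 9859 and 6305 bases. The annotation holds no gene inside an intron of a member that is free of its exons. Exonic overlap was limited to a miRNA gene on the same strand within each of Gria2, Gria3 and Gria4, over 0.301 to 0.862% of the exon bases. RefSeq promoters (GRCm38.p6, around the transcript start) were at hand for Gria2 and Gria4. Neither held the letters TGACGTCA, GGGCGG, GCATGCGC or TATAAA on either strand, which 1.79, 35.7, 2.71 and 13.6% of 32851 promoters held.

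Gria1, Gria2 and Gria3 mRNA was higher in every Dorsal than in every Ventral library, by 1.52 to 1.76-fold, and Gria4 mRNA moved the other way without reaching the fold-change threshold. Calls of enrichment required an adjusted p below 0.05 (edgeR quasi-likelihood test, Benjamini-Hochberg over all tested genes) together with mean CPM values that, with 1 added to each, differed by more than 0.58 on the log2 scale. By this rule 3 of the 4 members were dorsal-enriched and 0 ventral-enriched, where 15.7% of all tested genes were dorsal-enriched and 9.85% ventral-enriched. When protein-coding genes alone were tested, 1665 of 13635 were dorsal-enriched and 1292 ventral-enriched. The same 3 members had groups that did not overlap with Dorsal higher, as did 9.81% of tested genes.

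Gria1, whose product carries much of the activity-dependent receptor delivery at hippocampal synapses, had 964, 928, 894, 948 and 936 CPM in Dorsal replicates 1 to 5. In Ventral replicates 1 to 5 it had 709, 610, 613, 546 and 586 CPM. The lowest Dorsal library was thus above the highest Ventral one. The means were 934 ± 26.0 and 613 ± 59.9 CPM (SD, n = 5 each), a log2 fold change of 0.61 ± 0.084 (SE, adjusted p = 0.000228). Its log2 ratio of 0.61 lay close to the threshold of 0.58, and without Ventral replicate 4 the log2 fold change was 0.58 and the gene was no longer called (adjusted p = 0.00119).

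Gria2, the subunit that limits calcium entry once edited, had 1121, 1317, 1090, 1085 and 1104 CPM in Dorsal replicates 1 to 5. Ventral replicates 1 to 5 had 655, 633, 773, 597 and 595 CPM. The groups lay well apart, with Dorsal replicate 2 and Ventral replicate 3 the highest of their groups. The means were 1143 ± 98.0 and 651 ± 73.0 CPM, a log2 fold change of 0.81 ± 0.095 (adjusted p = 7.10e-05). Gria2 is the member with the lowest GC content, 36.8% in its longest annotated transcript against 39.8% in Gria3, 44.3% in Gria4 and 48.5% in Gria1. After a correction of every library for GC content and exonic length its log2 fold change was 0.27 ± 0.066 (adjusted p = 0.00812), which ended the call.

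Gria3, an X-linked subunit, had 311, 286, 248, 255 and 255 CPM in Dorsal replicates 1 to 5. It had 188, 163, 154, 167 and 162 CPM in Ventral replicates 1 to 5. No Ventral library reached the Dorsal range. The means of 271 ± 26.5 and 167 ± 12.8 CPM gave a log2 fold change of 0.70 ± 0.098 (adjusted p = 0.000246). With the GC and length correction it was 0.44 ± 0.084 (adjusted p = 0.00178), and this call too was lost, while Gria1 kept its call at 0.59 ± 0.075.

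Gria4, the subunit best known from fast-spiking interneurons and from cerebellar and brainstem circuits, had 62.8, 44.0, 47.4, 45.9 and 48.0 CPM in Dorsal replicates 1 to 5. Ventral replicates 1 to 5 had 77.7, 60.5, 62.5, 69.1 and 58.7 CPM. The groups overlapped because Dorsal replicate 1 lay above 3 of the Ventral libraries. The means were 49.6 ± 7.55 and 65.7 ± 7.79 CPM, a log2 fold change of -0.42 ± 0.13 with an adjusted p of 0.0251, and its log2 ratio of -0.40 did not reach the threshold. The adjusted p was below 0.05 in 18 of 26 alternative settings. With a covariate for the share of read pairs that fell outside genes, the log2 fold change was -0.16 ± 0.25 (adjusted p = 0.749). That share did not overlap between Dorsal and Ventral libraries, so its effect and that of the group cannot be fully told apart. Between 611 and 1401 read pairs per library lay behind the Gria4 values, against 6925 to 15785 for Gria1.

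**Figure D1:**
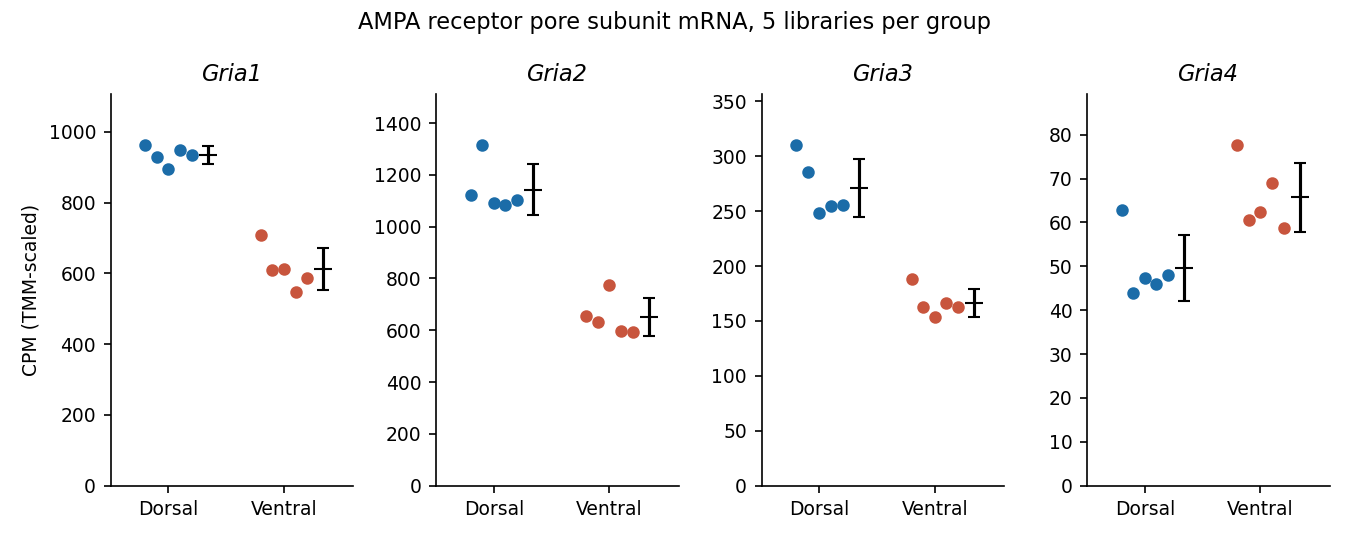
CPM scaled by TMM (vertical axis, linear, from 0) of each pore subunit in the 5 Dorsal (blue) and 5 Ventral (red) libraries, in order of replicate number, with mean ± SD in black. For Gria1, Gria2 and Gria3 the Dorsal libraries lie above the Ventral ones, whereas the Gria4 groups overlap at Dorsal replicate 1.

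Levels of different subunits were compared per kilobase of exon (CPM per kb). In every Dorsal and every Ventral library the order was Gria1, Gria2, Gria3, Gria4. Dorsal levels were 155 ± 4.30, 73.5 ± 6.31, 27.5 ± 2.69 and 7.87 ± 1.20 CPM per kb. Ventral levels were 101 ± 9.91, 41.8 ± 4.69, 16.9 ± 1.29 and 10.4 ± 1.23 CPM per kb. By this level Gria1 ranked 237 and Gria4 ranked 4172 among 13549 tested protein-coding genes.

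The order of the leading pair depended on the length used. The annotated exons of Gria2 span more bases than those of any other member. Divided by coding length alone, Gria2 came first, at 431 ± 37.0 CPM per kb in Dorsal against 343 ± 9.54 for Gria1 and above it in 5 of 5 libraries. In Ventral libraries it was 246 ± 27.5 against 225 ± 22.0 CPM per kb and above it in 4 of 5. With the longest coding transcript Gria1 was again higher in every library. Gria3 and Gria4 were the third and the fourth under all 3 lengths.

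Summed over the 4 members, the level was 273, 274, 251, 260 and 259 CPM per kb in Dorsal replicates 1 to 5. In Ventral replicates 1 to 5 it was 191, 168, 177, 157 and 161 CPM per kb. The Dorsal mean of 263 ± 9.99 was 154% of the Ventral mean of 171 ± 13.6 CPM per kb, and the ranges did not overlap.

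The composition of the pool was then expressed as the share of each subunit among the 4, from levels per kb within a library, which removes library size. The share of Gria4 was about 2 times as large in Ventral as in Dorsal libraries, and as a fold the shares of the other members differed less. In percentage points the Gria2 share differed by as much, with overlapping groups. Each share and each ratio of a pair was compared by an exact permutation test (two-sided, 5 against 5), with Benjamini-Hochberg adjustment over these 10 measures.

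Gria4 made up 3.65, 2.54, 2.996, 2.81 and 2.94% of the pool in Dorsal replicates 1 to 5. It made up 6.46, 5.72, 5.61, 6.99 and 5.78% in Ventral replicates 1 to 5. No Dorsal library reached the Ventral range. The mean shares were 2.99 ± 0.410% and 6.11 ± 0.595%, a difference of -3.13 percentage points (exact p = 0.00794, adjusted p = 0.0198). With shares from counts corrected for GC content and length the difference was -2.73 percentage points (adjusted p = 0.0159).

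The Gria2 fraction was 26.4, 30.9, 27.9, 26.9 and 27.4% in Dorsal replicates 1 to 5. In Ventral replicates 1 to 5 it was 22.1, 24.3, 28.1, 24.5 and 23.7%. The groups overlapped through Ventral replicate 3, which lay above 4 of the 5 Dorsal libraries. The means were 27.9 ± 1.77% and 24.6 ± 2.22%, a difference of 3.33 percentage points that did not pass the adjustment (exact p = 0.0397, adjusted p = 0.0794). Without Ventral replicate 3 it was 4.23 percentage points (adjusted p = 0.0132). Counts corrected for GC content and length turned the direction, to -3.33 percentage points (adjusted p = 0.0340), so the direction of the Gria2 fraction was not settled by these counts.

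The share of Gria1 was 56.0 to 60.4% in Dorsal and 57.4 to 61.5% in Ventral libraries (difference -0.68 percentage points, exact p = 0.548). The GC and length correction turned this to 6.11 percentage points (adjusted p = 0.0159). The share of Gria3 was 9.95 to 11.5% and 8.84 to 10.8% (difference 0.48 percentage points, exact p = 0.381), and -0.045 percentage points with the correction. Neither difference exceeded the spread of the libraries as counted.

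**Figure D2:**
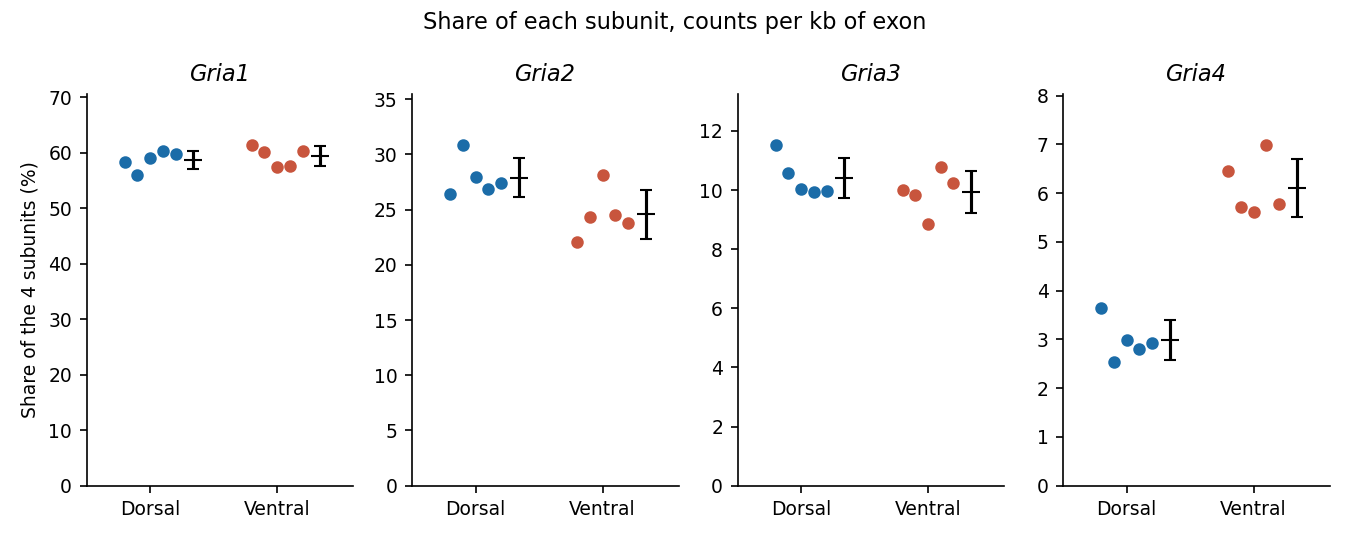
Share of each subunit among the 4 pore subunit mRNAs in percent (vertical axis, linear, from 0), from CPM per kb of exon, in the 5 Dorsal (blue) and 5 Ventral (red) libraries with mean ± SD in black. The Gria4 shares lie at 2.54 to 3.65% in Dorsal and 5.61 to 6.99% in Ventral libraries, and the other 3 panels overlap.

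Ratios within a library told the same composition pair by pair. Library size, and a length that is fixed for each gene, cancel in their difference between groups. Effects of GC content or length that differ between libraries do not cancel. The 3 ratios that involve Gria4 separated the groups without overlap, and the 3 others did not pass the test.

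The Gria1/Gria4 ratio per kb was 16.0, 22.0, 19.7, 21.5 and 20.3 in Dorsal replicates 1 to 5 and 9.51, 10.5, 10.2, 8.25 and 10.4 in Ventral replicates 1 to 5. On the log2 scale it was 4.31 ± 0.18 and 3.29 ± 0.15, a difference of 1.02 (adjusted p = 0.0198, exact permutation test). Every Dorsal library stood above every Ventral one. The Gria2/Gria4 ratio per kb was 7.23, 12.1, 9.33, 9.57 and 9.32 in Dorsal and 3.42, 4.25, 5.02, 3.51 and 4.11 in Ventral replicates 1 to 5, a log2 difference of 1.22 (adjusted p = 0.0198, exact). The Gria3/Gria4 ratio per kb was 3.16, 4.16, 3.35, 3.55 and 3.40 in Dorsal and 1.55, 1.72, 1.58, 1.54 and 1.77 in Ventral replicates 1 to 5, a log2 difference of 1.11 (adjusted p = 0.0198, exact). These groups did not overlap either. With the GC and length correction the 3 log2 differences were 1.06, 0.73 and 0.91 (adjusted p = 0.0159 each).

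The Gria1/Gria2 ratio per kb ranged from 1.81 to 2.25 in Dorsal and from 2.04 to 2.78 in Ventral libraries. Its log2 difference of -0.20 did not pass the test (exact p = 0.0635, adjusted p = 0.106). Gria1/Gria3 differed by -0.085 (adjusted p = 0.306) and Gria2/Gria3 by 0.12 (adjusted p = 0.357) on the log2 scale. All 3 turned direction with the GC and length correction, to 0.33, 0.15 and -0.18, of which the first passed (adjusted p = 0.0265).

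**Figure D3:**
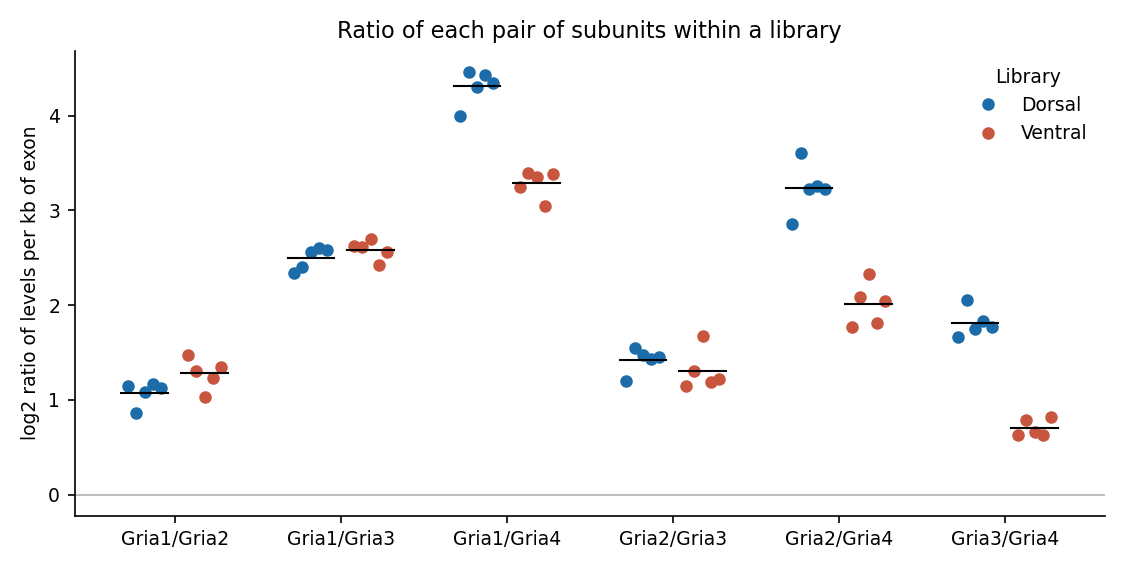
Log2 ratio of the levels per kb of exon for each pair of pore subunits (vertical axis) within each Dorsal (blue) and Ventral (red) library, with the group mean as a black line. The pairs with Gria4 stand 1.02 to 1.22 log2 units higher in Dorsal libraries and do not overlap, and the other pairs do.

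The fold changes of the members stayed near the reported values under other settings, apart from the GC and length correction and the covariate for read pairs outside genes. Over all 26 alternatives the log2 fold change was 0.58 to 0.73 for Gria1, 0.27 to 0.88 for Gria2 and 0.44 to 0.91 for Gria3, with an adjusted p below 0.05 in 26 of 26 for each. For Gria4 it was -0.51 to -0.16.

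**Figure D4:**
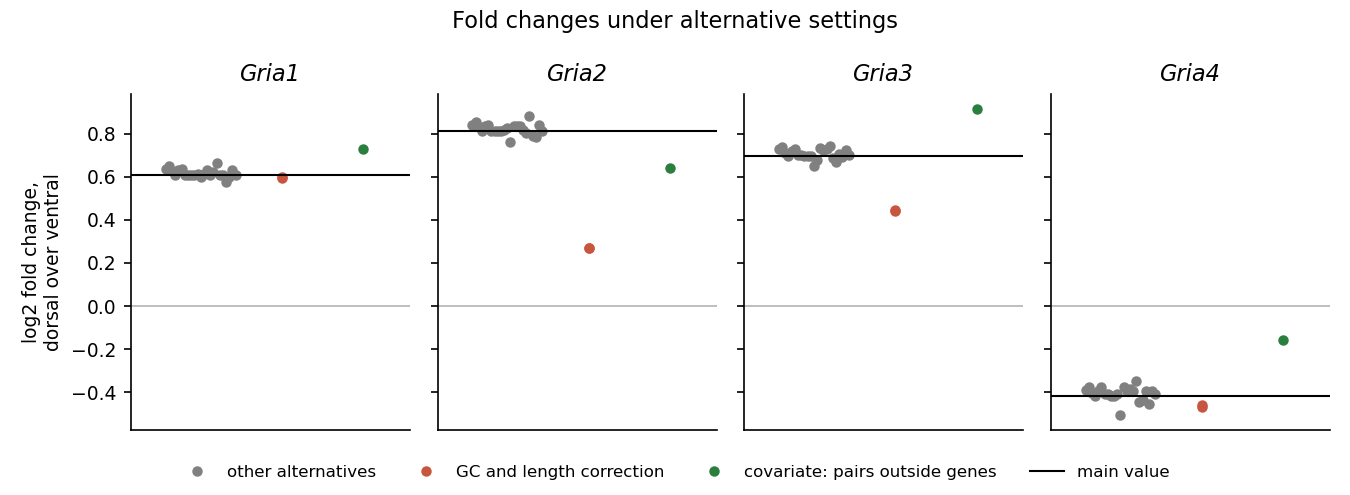
Log2 fold change, dorsal over ventral (vertical axis), of each member under 26 alternative settings (points; position along the horizontal axis has no unit) beside the reported value (black line). Red points are the GC and length correction alone and together with a replicate block, at 0.27 for Gria2, and the green point is the covariate for read pairs outside genes, at -0.16 for Gria4.

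Partners of the pore subunits were described from fixed lists of auxiliary subunits, assembly factors, scaffolds and editing enzymes. Of 36 tested genes, 7 were dorsal-enriched and 2 ventral-enriched, against 15.7% and 9.85% of all tested genes. Their median log2 fold change was 0.15, and that of all tested genes was -0.0044.

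Among the TARPs, a family of transmembrane auxiliary subunits whose members differ in their effects on AMPA receptor trafficking and gating, 3 of 6 were dorsal-enriched. Cacng5 (TARP γ-5) stood at 17.5 to 26.8 CPM in Dorsal and 4.64 to 9.77 CPM in Ventral libraries, a log2 fold change of 1.70 ± 0.21 (adjusted p = 0.000117). Cacng4 stood at 27.1 to 34.9 and 6.25 to 23.7 CPM (log2 fold change 1.22 ± 0.23, adjusted p = 0.00177). Neither pair of ranges overlapped. The covariate for read pairs outside genes ended the Cacng4 call (log2 fold change 1.47 ± 0.47, adjusted p = 0.0703) but not that of Cacng5. Cacng8 (TARP γ-8), the hippocampal TARP, was 18.0 ± 8.60 and 9.26 ± 2.67 CPM with overlapping groups. Its call was lost when Dorsal replicate 2, Ventral replicate 3 or Ventral replicate 5 was left out, and at an adjusted p below 0.01. The replicate number as a block (log2 fold change 0.88, adjusted p = 0.0550) and that covariate (0.44, adjusted p = 0.713) ended it too. The TARPs with the most reads were Cacng2, stargazin, at 103 ± 9.46 and 112 ± 6.36 CPM, and Cacng7, at 49.2 ± 12.4 and 50.2 ± 6.93 CPM, neither of which passed the test (adjusted p = 0.352 and 0.969).

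Of 8 tested auxiliary subunits from other families, 2 were dorsal-enriched. Shisa7 ranged from 60.9 to 109.9 CPM in Dorsal libraries and from 37.8 to 49.7 CPM in Ventral ones (log2 fold change 0.90, adjusted p = 0.000857). Syndig1, a synapse differentiation protein that binds AMPA receptors, had 13.4 to 22.6 and 5.11 to 11.5 CPM (log2 fold change 0.95, adjusted p = 0.00652). Both were higher in every Dorsal library. With the covariate for read pairs outside genes the calls of Shisa7 (log2 fold change 0.46, adjusted p = 0.349) and Syndig1 (1.45, adjusted p = 0.0501) were lost. Shisa6 was the highest of this list at 272 ± 31.8 and 191 ± 27.2 CPM, with an adjusted p of 0.00566 and a fold change under the threshold. With that covariate the log2 fold change of Shisa6 was 0.89 (adjusted p = 0.0186). Prrt1 followed at 109 ± 18.7 and 88.1 ± 10.7 CPM (adjusted p = 0.0831). Shisa8 did not pass the expression filter.

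None of the 5 assembly and export factors was called. Frrs1l, which builds receptors in the endoplasmic reticulum, had 616 ± 88.6 and 420 ± 37.9 CPM (log2 fold change 0.55, adjusted p = 0.00195) and no overlap between groups. It was called dorsal-enriched in 5 of 26 alternatives, with DESeq2 size factors, with upper-quartile factors, and without Dorsal replicate 3, Dorsal replicate 5 or Ventral replicate 1. The covariate for read pairs outside genes gave Frrs1l a log2 fold change of 0.84 (adjusted p = 0.0163). Sacm1l had 21.3 ± 2.10 and 23.9 ± 1.85 CPM.

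Of 14 scaffold and trafficking genes, 2 were dorsal-enriched and 2 ventral-enriched. Arc, the activity-induced gene whose product drives AMPA receptor endocytosis, was 53.1 ± 8.11 CPM in Dorsal libraries against 30.2 ± 2.21 CPM in Ventral ones (log2 fold change 0.81, adjusted p = 0.000692). Nptx1, a secreted pentraxin that clusters AMPA receptors, was 270 ± 13.3 and 169 ± 18.5 CPM (log2 fold change 0.67, adjusted p = 0.000271), and 0.58 with the covariate for read pairs outside genes (adjusted p = 0.0700), where its call was lost. Nsf, the fusion ATPase that binds the Gria2 tail, was 617 ± 41.8 and 947 ± 94.2 CPM, higher in every Ventral library (log2 fold change -0.62, adjusted p = 0.000337). The Nsf call was lost without Dorsal replicate 2, without Ventral replicate 1 and with that covariate (log2 fold change -0.40, adjusted p = 0.170). Grip1, a scaffold that also binds that tail, was 18.9 ± 6.60 and 31.4 ± 8.68 CPM (log2 fold change -0.75, adjusted p = 0.0303), and 11 of 26 alternatives ended its call, among them leaving out Dorsal replicate 1, 2 or 4 or Ventral replicate 1, 4 or 5. Dlg2, a postsynaptic density scaffold, was 620 ± 55.2 and 552 ± 55.6 CPM (adjusted p = 0.192).

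No RNA editing enzyme was called. Adarb1, which edits the glutamine/arginine site of Gria2, stood at 164 ± 19.8 CPM in Dorsal libraries and at 139 ± 10.4 CPM in Ventral ones (log2 fold change 0.25, adjusted p = 0.0866). Adarb2, a family member without known editing activity, had 52.3 ± 15.3 and 71.6 ± 7.32 CPM (log2 fold change -0.46, adjusted p = 0.0495), and was called ventral-enriched without Dorsal replicate 1 and with the GC and length correction. Adar, named here for this change, was called ventral-enriched without Ventral replicate 3.

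The NMDA and kainate receptor genes are given for comparison. Of 11 tested, 4 were dorsal-enriched and 2 ventral-enriched, beside 15.7% and 9.85% of all tested genes. The median of their log2 fold changes was 0.40. The NMDA receptor genes Grin2a and Grin2b, at 758 ± 56.7 and 1447 ± 57.5 CPM in Dorsal libraries, had log2 fold changes of 1.13 and 1.01 (adjusted p = 3.16e-06 and 3.31e-06). Grin2c was dorsal-enriched at under 2 CPM, and Grin3a was ventral-enriched at 21.2 ± 7.08 and 34.0 ± 6.59 CPM. The Grin2c call was lost without Dorsal replicate 2 or 3 or Ventral replicate 4 or 5, and the Grin3a call without Dorsal replicate 2 or Ventral replicate 5. The covariate for read pairs outside genes ended both, with log2 fold changes of 0.89 (adjusted p = 0.552) and -0.16 (adjusted p = 0.851). Of the kainate receptor genes, Grik2 was dorsal-enriched at 194 ± 52.7 and 110 ± 7.64 CPM (log2 fold change 0.82). The GC and length correction ended the Grik2 call, and the covariate kept it (log2 fold change 1.37, adjusted p = 0.00836). Grik1 was ventral-enriched at 14.5 ± 1.69 and 27.5 ± 12.1 CPM, and Grik3 had a log2 fold change of 0.021. In the AMPA, NMDA and kainate families some members had positive and others negative log2 fold changes.

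**Figure D5:**
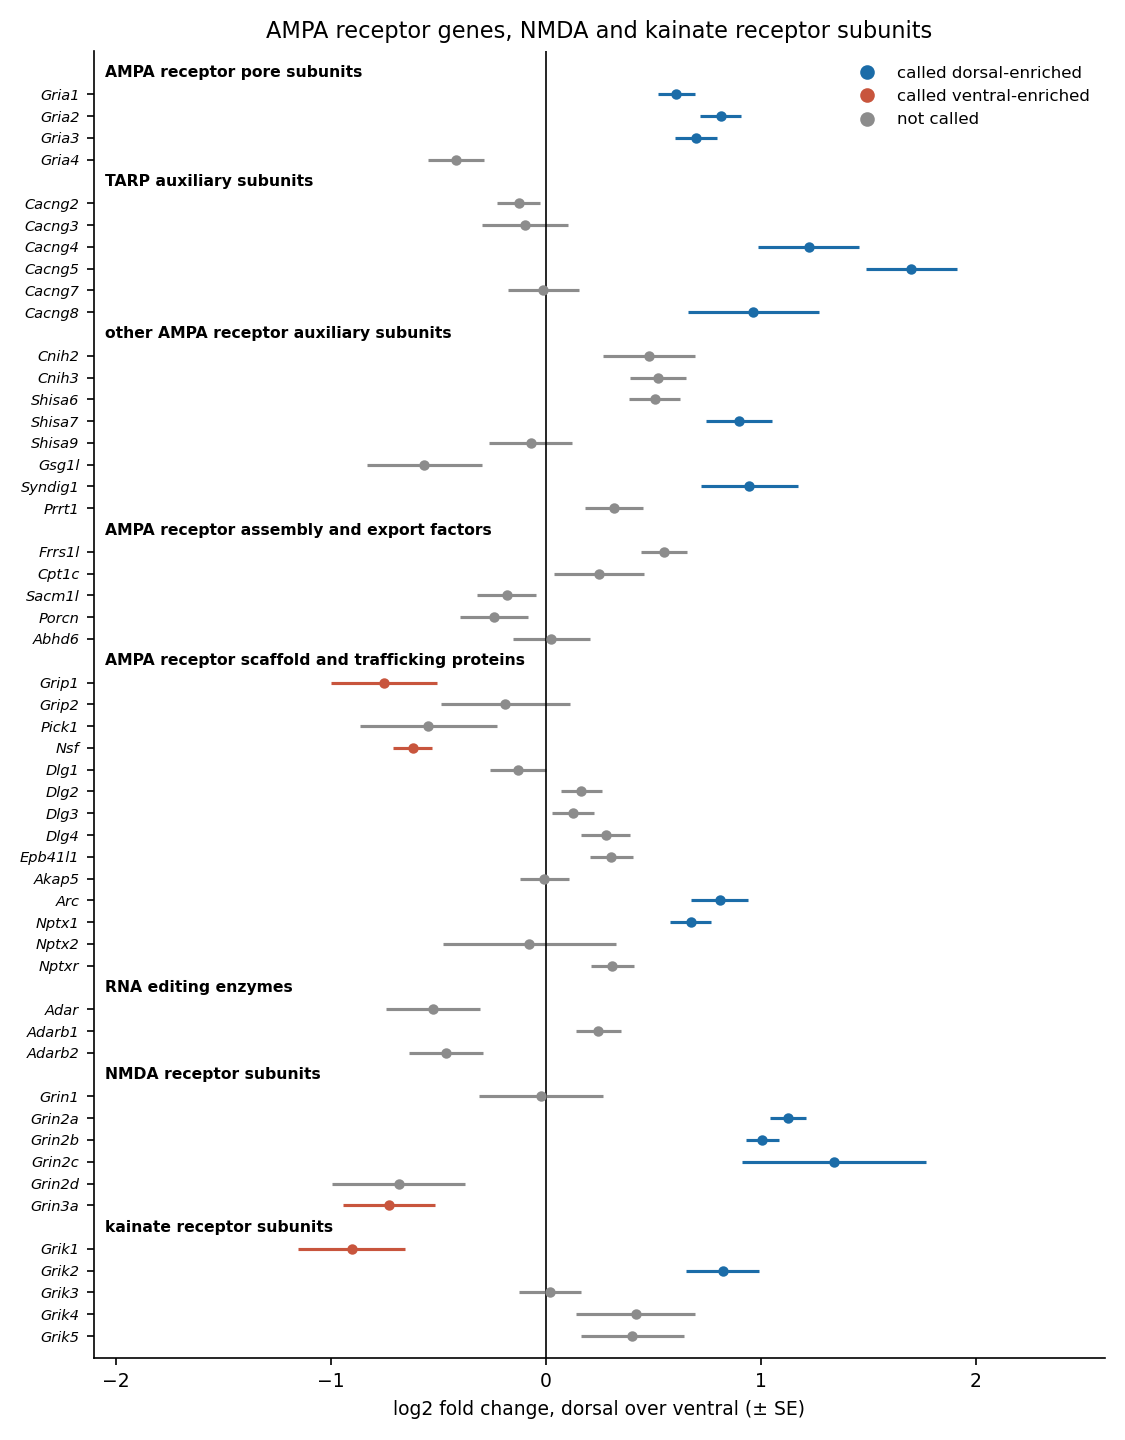
Log2 fold change, dorsal over ventral (horizontal axis), with its SE as a bar, of each tested AMPA receptor pathway gene and NMDA or kainate receptor gene, in blue where called dorsal-enriched, red where called ventral-enriched and grey otherwise. Gria1, Gria2 and Gria3 sit between 0.61 and 0.81 and Gria4 at -0.42.

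The genes whose levels over the 10 libraries were most like those of each member were found by Pearson correlation of log2(CPM + 1) among 8502 other protein-coding genes with a mean of at least 10 CPM. The libraries form 2 separate groups and share tissue and depth, so these values describe the pattern and carry no test. Gria1 was most like Dgkh (r = 0.992), Slc8a1 (0.983) and Jph1 (0.981), and Gria2 most like Map2, the dendritic microtubule protein (0.992), Nptx1 (0.988) and Hectd2 (0.984). Among the genes most like Gria3 were E2f3 (0.981) and Epha6 (0.979). These 8 genes were all dorsal-enriched, which follows largely from choosing genes like members whose groups lie apart. Gria4 was most like Dlat (0.974), Klhl7 (0.960) and Synj1 (0.955), none of which was called.

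Within groups, after each group mean was taken away, the order was different. The genes most like a member are the top of 8502 correlations over 10 libraries, and how high chance alone would reach was not tested. Gria1 was most like Aagab (r = 0.930), Nptn (0.916) and Slc25a3 (0.912). Slc25a3 was ventral-enriched, and Aagab and Nptn were not called. Gria2 was most like Srsf3 (0.957), Eif2s3y (0.954) and Arpp19 (0.941), and Gria3 was most like Syt4 (0.964), Usp15 (0.948) and Dctn4 (0.946). Among the genes most like Gria4 were Dpp10 (0.953) and Dlat (0.945). Among the members themselves the correlation of deviations was 0.75 between Gria3 and Gria4, 0.53 between Gria1 and Gria3 and 0.27 between Gria1 and Gria2, and -0.14 between Gria2 and Gria4.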

How the data were processed

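The authors amplified 500 pg of TRAP RNA per library (Ovation RNAseq V2, TruSeq v2), sequenced 50 bp paired ends, aligned them to GRCm38 with STAR 2.5.2b and made the deposited whole-number counts per Ensembl gene with HTSeq 0.7.2. Use of strand and annotation release are not given in the sources used here. Symbols, lengths and GC content came from GENCODE M21 (GRCm38), which matched 54809 of 54838 identifiers. Read pairs on no gene, 11.6 to 33.9% of a library, stayed out of library sizes and tests.

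Genes that exceeded 1 CPM in 2 or more libraries were compared with the edgeR 4.0.16 quasi-likelihood test in R 4.3.3 (TMM, Benjamini-Hochberg). CPM values were scaled by TMM, and SE was obtained from the log2 fold change and F (their quotient after the root of F was taken). edgeR's default quasi-likelihood dispersions were run first and gave 2217 dorsal-enriched and 1408 ventral-enriched genes. The newer dispersions (legacy = FALSE), which give 2636 and 1655, were adopted after these counts were seen, because they match an earlier processing of the same files. The calls of the 4 members are the same in both. Shares and ratios used counts per kb of exon and exact permutation tests (scipy 1.17.1). Library measures were tested the same way. With these library sizes 3 counts equal 0.146 to 0.269 CPM, a limit for counting error only, since reads carried no molecular identifiers. The replicates of a group differed by 4.36 to 45.1 times the sampling noise, so none was a duplicate.

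The fit was tested on simulated counts. Its criterion for the share of changed genes recovered was not met over all genes, nor at a mean of 10 CPM or more, and was replaced both times after the value was seen, ending on genes at 40 CPM or more, the range of the members. It therefore shows little about genes with low counts, where real differences may have been missed. The criteria on direction, false calls and bias were met each time.

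The members and lists were chosen with earlier results of these data known. Named genes were the 4 members, each called pathway gene, the 2 with the most reads in each list, and the 3 genes most like each member by each measure. Some genes that this rule names are not reported here. Lists of mossy cell, dentate granule cell, CA1 and CA3 pyramidal cell, oligodendrocyte precursor, microglia and endothelium markers summed to 528 to 1397, 369.5 to 524, 429 to 544, 32.8 to 85.8, 20.6 to 43.7 and 9.86 to 59.1 CPM over the 10 libraries. The mossy cell sum was higher in Ventral libraries (1151 to 1397 against 528 to 597 CPM), mostly through Calb2. Alternatives were other scalings, filters, tests (DESeq2 1.42.0), lengths, a GC and length correction (a smooth trend per library, mgcv 1.9.3), the replicate number as a block and each library left out. Protein-coding genes alone, the default dispersions, the covariate for read pairs outside genes and GC-corrected shares were added after the data were seen. The p-values measure the spread between pools.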

Additional observations from a re-analysis of the deposited data

Results flagged for a closer look

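Gria2 in Dorsal replicate 2 stood at 1317 CPM, apart from the other 4 Dorsal libraries, of which the nearest had 1121 CPM. Gria4 in Dorsal replicate 1 stood at 62.8 CPM, with the nearest Dorsal library at 48.0 CPM. In each case the gap to the nearest library, 0.85 and 0.79 of the group's range, exceeded Dixon's 95% critical value of 0.71. These were 2 of 30 groups of 5 values examined for the members, and chance alone flags about 1 in 20. Without Dorsal replicate 2 Gria2 kept its call, and without Dorsal replicate 1 the log2 fold change of Gria4 was -0.51 and still under the threshold as a ratio.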

How the results depend on the processing

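Of 444 values recomputed under alternatives, 405 kept their direction and side of the threshold, or a count within 1.5 times. With the GC and length correction Gria2 fell to 0.27 (0.27 with the block added) and Gria3 to 0.44 (0.45), ending both calls. Direction turned with it for 6 values, namely the shares of Gria1 (6.11 percentage points), Gria2 (-3.33) and Gria3 (-0.045) and the log2 ratios Gria1/Gria2 (0.33), Gria1/Gria3 (0.15) and Gria2/Gria3 (-0.18). The cause was not tested. Leaving out 1 library at a time gave 0.58 to 0.66 for Gria1, 0.76 to 0.88 for Gria2, 0.65 to 0.74 for Gria3 and -0.51 to -0.35 for Gria4, 2.59 to 4.23 percentage points for the Gria2 share and -0.27 to -0.15 for the log2 ratio Gria1/Gria2. Both of the last passed only without Ventral replicate 3.

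The same mice gave tissue to both groups, but which Dorsal and Ventral libraries share mice is not given. Same-numbered libraries deviated together with a correlation of -0.032 to 0.069. These correlations cannot decide whether same-numbered libraries share a pool, and the main tests treated all libraries as unpaired. With the number as a block, 2656 genes were dorsal-enriched and 1674 ventral-enriched, and the members kept their calls. An exact sign-flip permutation test of 5 numbered pairs cannot go below p = 0.0625, so the differences of -3.13 for the Gria4 share and 1.02, 1.22 and 1.11 for its log2 ratios had an adjusted p of 0.156 under the block.

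Over all genes, 2636 dorsal-enriched and 1655 ventral-enriched became 1498 and 897 at an adjusted p below 0.01, and 834 and 339 with the covariate for read pairs outside genes. edgeR's default dispersions, run first, gave 2217 and 1408. Protein-coding genes alone gave 1665 dorsal-enriched and 1292 ventral-enriched of 13635 genes tested. Pathway genes called dorsal-enriched were 2 with the covariate, which also moved Gria1 to 0.73 and Gria4 to -0.16. The ratio of mean CPM in the call rule does not include the covariate. Frrs1l (log2 fold change 0.84, adjusted p = 0.0163) and Shisa6 (0.89, adjusted p = 0.0186) therefore stayed uncalled with it. Ventral-enriched pathway genes, 2 as reported, were 1 with upper-quartile factors, at an adjusted p below 0.01, with the block and with the default dispersions, 0 with the covariate, and 0 to 3 without 1 library. Other ionotropic genes called ventral-enriched were 0 at an adjusted p below 0.01, 1 with the covariate, and 1 to 3 without 1 library. Of the members Gria4 had the fewest read pairs, 611 to 1401 per library.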
